A study of Mus musculus with 7 samples.

Results

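The mRNAs of the translation initiation and elongation factors were taken as all transcripts whose gene symbol starts with Eif or Eef followed by a digit, without pseudogenes named -ps. The rule found 266 of the 26827 transcripts listed, and they belong to 57 of 13218 genes. Of these transcripts, 148 are annotated as protein coding, 62 as retained introns, 39 as processed transcripts and 17 as targets of nonsense-mediated decay. The cells were E14 mESC, an embryonic stem cell (ESC) line of the mouse strain 129/Ola, without any genetic change and with 1 line throughout. CIRS-seq maps unpaired bases as stops of reverse transcription (RT) that a chemical adduct causes at the next base. The lysates had been treated with Proteinase K, so that the RNA was probed free of most protein, and the RNA was depleted of rRNA. DMS (dimethyl sulfate, pooled aliquots from 50 to 200 mM) marks mainly unpaired A and C, and CMCT (a carbodiimide, pooled aliquots from 10 to 50 mM) marks mainly unpaired U. NT libraries came from aliquots with 0 mM of reagent and show the stops that RT makes by itself. Each treatment had 2 biological replicates, and 1 RNA-seq library of the same cells was without a replicate.

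Initiation factors bring the small ribosomal subunit, the initiator tRNA and the mRNA cap together, and elongation factors then carry aminoacyl-tRNA to the ribosome and move it along the mRNA. eIF4F (eIF4E on the cap, the scaffold eIF4G and the helicase eIF4A) recruits the mRNA, eIF3 bridges it to the small subunit, and eIF2 with GTP delivers the initiator tRNA. eIF2B recharges eIF2, and the eIF2 kinases phosphorylate eIF2 under stress and thereby block this step. Many mRNAs of elongation factors and eIF3 subunits are known as TOP mRNAs, whose cap is followed by a run of pyrimidines and whose translation follows mTOR. The symbols Eif2c2 and Eif2c4 are older names of Argonautes, which act in small RNA silencing and fall under the naming rule only.

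The deposited counts summed to between 181944556 and 338201940 RT stops per library over all isoforms. Only positions at which the 25 following bases occur once in the genome, and which no other listed gene holds, were used. Each was counted once per gene, which left between 10640987 and 19375060 stops per library. ESC markers were present in the RNA-seq library. The 10 genes on that list had 10.7 to 315.5 RPKM (alignments per kb of exon per 1000000 counted), with Dppa5a highest, whereas the fibroblast collagen gene Col1a1 had 0.0556 and the endoderm gene Afp had 0. Vim, which stem cells in culture also express, had 36.6, and the 4 endoderm genes summed to 7.62. Replicates were closer than their depths at some single positions: at 26.2% of the 240811 positions tested over all genes, and at 9.08% of those in translation factor genes, the 2 replicates differed by at most 1 count in all 3 treatments. In Eef1a2 these were 38 of its 39 tested positions, and in Eef1a1 35 of 141. These positions hold nearly the same counts in libraries of different depth, and why they do was not tested. The p-values take the replicates as independent, which is in doubt at such positions.

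The sequences at the most counted untreated 5′ UTR positions are shown first, because many start with a run of pyrimidines. In 45 of the genes, the most counted 5′ UTR position of the NT libraries held at least 10 stops. In 12 of these, 6 or more bases that are all C or T followed directly after it. That is 26.7% of the 45, against 4.76% of the 3066 coding genes measured the same way and 3.56% of their 627483 usable 5′ UTR positions. The 15 bases after each of the 12 positions are shown, read 5′ to 3′ from the mm9 reference as DNA on the strand of the mRNA, with the run in capitals.
Eef1a1, chr9:78329465-78329479, minus strand: TCTTTTTCgcaacgg
Eef2, chr10:80639390-80639404, plus strand: TCTCTTCCgccgcag
Eef1b2, chr1:63223702-63223716, plus strand: TCCTTTTTTTCCCTC
Eif3k, chr7:29766804-29766818, minus strand: TCCTCTagtgctaag
Eif3l, chr15:78905658-78905672, plus strand: TCTCTCCCacgggct
Eif3e, chr15:43114241-43114255, minus strand: TCCTTTCCCCCggca
Eif2s3x, chrX:91457977-91457991, minus strand: CCTTTTCTCTCCgag
Eif3a, chr19:60866548-60866562, minus strand: TCCTTTCCgtctctg
Eif3m, chr2:104857189-104857203, minus strand: TCTCTTTTCCggtcg
Eif2s2, chr2:154718555-154718569, minus strand: CTCCCTTTCgctgat
Eif2a, chr3:58329964-58329978, plus strand: TCTCTTTCCgggaca
Eif4b, chr15:101904353-101904367, plus strand: TCCTTTgcgttctct

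All 12 are in 5′ UTRs of annotated coding isoforms, but at different distances from the annotated start. The position before the run was base 5 of the Eif3l mRNA, base 14 of Eef2, base 52 of Eef1a1 and base 303 of Eef1b2. RefSeq on GRCm38.p6, whose promoter windows reach from 250 bases before to 50 after a gene's start, held 11 of the 12 genes. It held the run of 5 of them, from 19 bases before the RefSeq start in Eif3m to the base next to it in Eif2s3x and base 35 after it in Eif3a. A match is a description of the sequence, and whether these stops mark the first base of the mRNA was not tested.

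Eef1a1 codes for eEF1A1, the factor that brings aminoacyl-tRNA to the ribosome, and its position before the run was the most counted one of its gene. It held 710.1 and 875.0 RT stops per 1000000 scaled counts in NT, 317.5 and 629.3 in DMS, and 557.7 and 121.9 in CMCT. All 4 treated libraries were below both NT libraries, but the treated replicates lay far apart. In NT the position held 82.1% of the stops in the 5′ UTR. For Eef2, which codes for the translocase eEF2, the values were 166.9 and 156.6 in NT, 52.8 and 41.5 in DMS, and 58.1 and 17.1 in CMCT. This is the same order, with all treated libraries lower. For Eef1b2, a subunit of the eEF1B exchange factor, they were 49.3 and 38.3 in NT, 17.3 and 19.8 in DMS, and 11.9 and 8.32 in CMCT. These positions were chosen for their NT stops, so lower values in the treated libraries are favoured by the choice, and no test of them is given. Of the 12, 9 were lower in both DMS than in both NT libraries, and 12 in both CMCT libraries. Of the 33 other peaks, with shorter runs, 21 were lower in both DMS libraries (63.6%) and 19 in both CMCT libraries (57.6%). Over all 3066 coding genes, with peaks chosen in the same way, 63.2% were lower in DMS and 70.7% in CMCT. Among the 146 of these with a run of 6 or more the shares were 72.6% and 93.2%, beside 62.7% and 69.6% with shorter runs. The difference between longer and shorter runs was not tested.

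**Figure D1:**
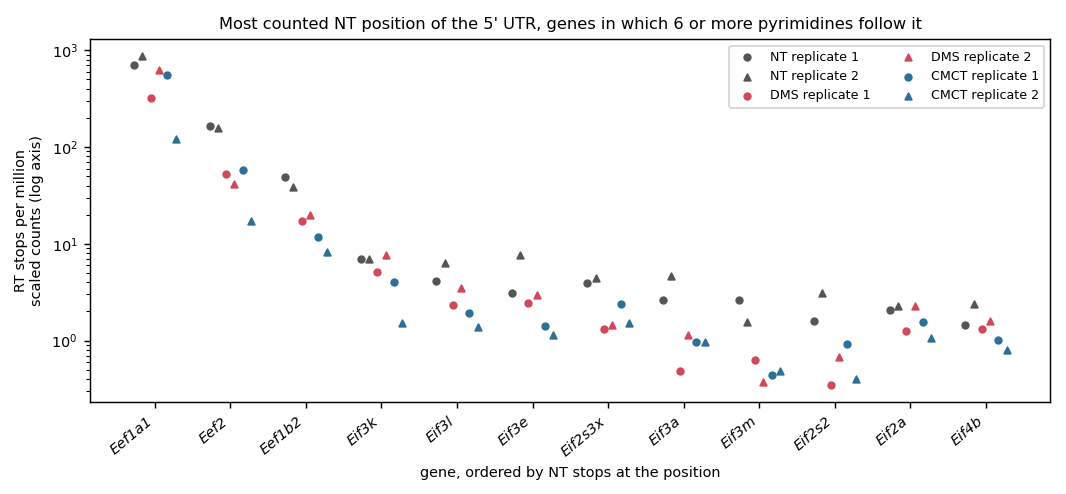
The plot gives, for the 12 genes whose most counted NT position in the 5′ UTR is followed by 6 or more pyrimidines, the RT stops at that position per 1000000 scaled counts on a log axis, with circles for replicate 1 and triangles for replicate 2. NT (grey) lies highest in most genes, as in Eef2 with 166.9 and 156.6 against at most 58.1 in the treated libraries, and the 2 CMCT replicates (blue) of Eef1a1 are 557.7 and 121.9.

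The level of a gene is given in RT stops per kb of used positions and per 1000000 scaled counts, written below as stops per kb, and beside it the RNA-seq level in RPKM. RNA-seq levels of the 57 genes ranged from 0.142 (Eif2c4) to 2450 RPKM (Eef1a1). After Eef1a1 followed Eef2 with 319, Eif4a1 with 247, Eef1g with 169 and Eef1b2 with 151. In NT and DMS, the mean density of RT stops was highest in Eef1a1. It had 1692 and 1813 stops per kb in NT, 1547 and 1760 in DMS, and 1402 and 843.4 in CMCT. In CMCT the mean was highest in Eef2, which had 1474 and 957.3 in NT, 1606 and 1266 in DMS, and 1323 and 975.0 in CMCT. The 2 genes do not overlap in NT, whereas in DMS and in CMCT they do. A single U in the 5′ UTR of Eef1a1 held 45.9% and 52.8% of its used stops in NT. In DMS it held 22.4% and 39.1%, and in CMCT 43.5% and 15.8%. The most counted position of Eef2 held only 6.26% and 9.05% of its stops in NT. The first rank of Eef1a1 in NT and DMS, and its distance from Eef2 in NT, thus rest on that U. By mean NT level the next were Eif4a2 (522 ± 340, SD, n = 2), Eif5a (344 ± 28.2), whose product eases peptide bond formation at prolines, and Eif4ebp1 (316 ± 99.9), which codes for a repressor of eIF4E. Their order cannot be told from their spread.

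Over the 57 genes, RNA-seq level and RT stop density went together, with Spearman's rho of 0.775 in NT, 0.784 in DMS and 0.816 in CMCT. Genes are not independent replicates. The RNA-seq level is per exon base, while the stop density is per used position. When all positions were used, including those with repeated sequence, rho was 0.456 in NT. The used positions held only 10.9% of the stops listed for Eef1a1, 13.8% for Eif4a1, 6.84% for Eef1g and 1.9% for Eef2k. The rest lay at positions that did not meet the rule for used positions. How much of this was repeated or shared sequence was not separated from other ways to fail that rule. Eef1a1 has many processed copies in the genome, and its values describe 915 positions only. Eif2c4 did not pass the filter on low counts, which left 56 genes for the tests.

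A few genes had RT stops without a matching RNA-seq level. Eef1a2, the copy of eEF1A used by muscle and neurons, had 0.194 RPKM and yet 18.2 and 26.8 RT stops per kb in NT, 51.1 and 55.8 in DMS, and 19.6 and 32.1 in CMCT. Its raw counts were 436 and 431 in NT, 1407 and 1411 in DMS, and 771 and 758 in CMCT, nearly equal within each treatment. Eef2k, the kinase that inhibits eEF2, had 0.594 RPKM. One A in its 3′ UTR held 38.8% of its stops. In Eef2k, the 2 NT libraries had 27.0 and 42.0 stops per kb, against 13.7 and 16.5 in DMS and 20.3 and 8.47 in CMCT.

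**Figure D2:**
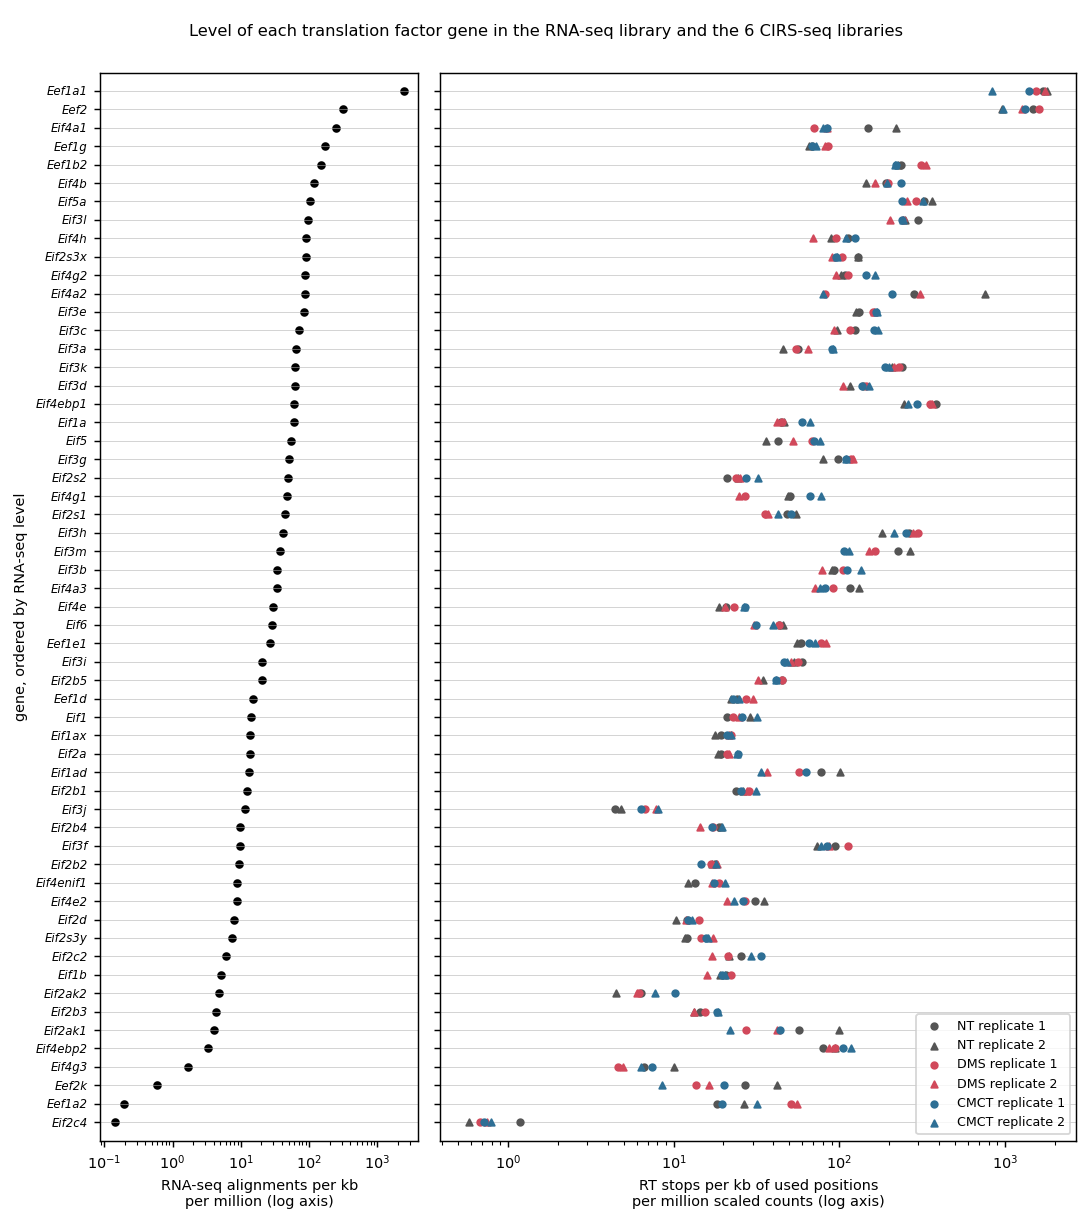
The plot orders the 57 genes by RNA-seq level (left, RPKM, log axis) and gives their RT stops per kb of used positions per 1000000 scaled counts in each of the 6 CIRS-seq libraries (right, log axis, circles for replicate 1 and triangles for replicate 2). Eef1a1 and Eef2 stand above all others in both panels, and Eef1a2 has 0.194 by RNA-seq but 18.2 to 55.8 RT stops.

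The helicase genes Eif4a1 and Eif4a2 host small nucleolar RNAs in their introns, and isoforms with retained introns put those intronic bases into the transcript list. In Eif4a2, 19 positions in annotated small RNA genes (SNORA63, Snora81 and Snord2) or within the 5 bases before them held 76.9% of the stops. Their share was 79.0% and 92.5% in NT, 37.5% and 78.5% in DMS, and 68.1% and 47.4% in CMCT. At the other Eif4a2 positions the levels were 59.4 and 57.4 stops per kb in NT, 51.9 and 66.9 in DMS, and 66.6 and 42.2 in CMCT. The spread of Eif4a2 between libraries was thus mostly at the small RNA positions, and its level without them no longer ranks among the highest. The log2 fold change of Eif4a2 was −1.41 ± 0.82 in DMS and −1.86 ± 0.83 in CMCT with these positions, and −0.07 ± 0.31 and −0.15 ± 0.31 without them, and none of these passed the test over all genes (edgeR quasi-likelihood, adjusted p = 0.280, 0.212, 0.899 and 0.802). In Eif4a1, 7 such positions (SNORA48 and SNORA67) held 37.6% of the stops, with 46.1% and 55.7% in NT, 19.5% and 30.5% in DMS, and 34.5% and 19.1% in CMCT. No other translation factor gene had stops at annotated small RNA genes on its strand.

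At the level of whole genes the question is whether the reagents change how many RT stops an mRNA has beside the others. In DMS, 0 of the 56 genes rose and 2 fell (edgeR quasi-likelihood, adjusted p under 0.05), where 9.18% of all 11362 genes were called in either direction. At an unadjusted p under 0.05, 5 were higher and 9 lower, beside 17.7% and 12.9% of all genes, and DESeq2 called 4 genes, 1 of them higher, beside 16.5% of all genes. The direction of the calls depended on the positions. In the coding region alone 3 rose and 1 fell, beside 3.21% and 2.30% of all genes. Without the 10 most counted positions of each gene 2 rose and 1 fell, beside 6.92% and 4.76%. With all positions 3 rose and 5 fell, beside 13.8% and 12.5%. In CMCT, 0 rose and 1 fell, against 5.69% of all genes. Here 8 were higher and 5 lower at an unadjusted p under 0.05, beside 14.8% and 12.5% of all genes, and DESeq2 called 5, 2 of them higher, beside 16.2% of all genes. Without the 10 most counted positions the single call was a rise, where 2.13% of all genes rose and 1.59% fell. With all positions 4 rose and 4 fell, beside 15.0% and 13.9%. The median log2 fold change was 0.00 in DMS (0.04 over all genes) and 0.12 in CMCT (0.04 over all genes).

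Eif4g1, the main eIF4G scaffold, fell in DMS. Its levels were 50.2 and 49.1 stops per kb in NT, 26.8 and 24.7 in DMS, and 66.7 and 77.3 in CMCT. The DMS libraries are the lowest pair and the CMCT libraries the highest, without overlap. The log2 fold change in DMS was −0.95 ± 0.19 (SE, adjusted p = 0.0352), and that in CMCT was 0.53 ± 0.19 (adjusted p = 0.140). The fall was of like size in all alternatives, from −1.18 to −0.85, with adjusted p from 2.58e-05 to 0.219. It lost the call when any 1 NT or DMS library was left out. Without either NT library the DMS calls over all genes were lost too, so that loss is not particular to Eif4g1.

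Eif4a1, the main eIF4A helicase, had 150.3 and 220.9 stops per kb in NT, 70.1 and 83.9 in DMS, and 85.0 and 80.3 in CMCT. Both treatments lie below NT, with −1.27 ± 0.25 in DMS (adjusted p = 0.0337) and −1.17 ± 0.25 in CMCT (adjusted p = 0.0528). Without the positions at small RNA genes, the DMS change was −0.74 ± 0.16 (adjusted p = 0.0625). It was 0.03 without positions near repeated sequence and 0.14 in the coding region alone, so the fall is not seen there. Over all alternatives the adjusted p ran from 0.000567 to 0.947, and leaving out any 1 NT or DMS library ended the call. Leaving out an NT library ended the DMS calls of all genes too.

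Eif3m fell in CMCT, from 225.6 and 268.1 stops per kb in NT to 106.7 and 114.9, and had 164.7 and 151.6 in DMS. The CMCT change was −1.16 ± 0.20 (adjusted p = 0.0286). One U outside the reference isoform, with 1291 and 1292 stops in NT, 460 and 460 in DMS, and 425 and 426 in CMCT, held 19.4% of its stops. In NT its share was 26.7% and 33.4%. This U is among the positions with equal replicates, where taking the replicates as independent is in doubt. Without the 10 most counted positions the change was 0.18, and in the coding region alone it was 0.47, the opposite sign. The adjusted p ran from 2.58e-06 to 0.630 over the alternatives. Leaving out NT replicate 1, NT replicate 2 or CMCT replicate 2 ended the call. Without NT replicate 2 the CMCT calls of all genes were lost too, and without NT replicate 1 nearly all of them.

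**Figure D3:**
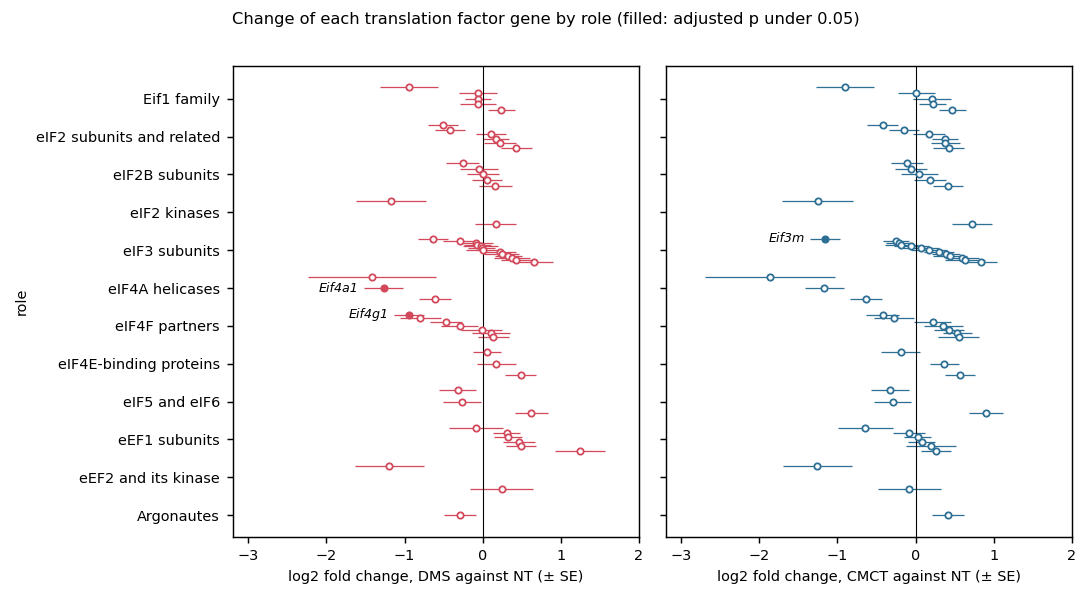
The plot gives the log2 fold change of each gene (points, bars are ± SE) against NT for DMS (left) and CMCT (right), by role. Filled points passed the test, which are Eif4a1 (−1.27) and Eif4g1 (−0.95) in DMS and Eif3m (−1.16) in CMCT, and the lowest point in each panel is Eif4a2 (−1.41 and −1.86), most of whose stops are at small RNA genes.

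By role, the 6 eEF1 genes had a median log2 fold change of 0.40 in DMS and 0.05 in CMCT, and none passed the test. Eef1a2 had the highest value in DMS, 1.25 ± 0.32 (adjusted p = 0.0651), with equal replicates at nearly all tested positions, and Eef1a1 the lowest, −0.08 ± 0.35 (adjusted p = 0.892). Eef1b2 had 311.9 and 332.8 stops per kb in DMS against 238.1 and 228.3 in NT (0.47 ± 0.20, adjusted p = 0.172). Eef1g, which anchors the eEF1B complex, had 85.9 and 82.1 against 68.2 and 66.0 (0.32 ± 0.18, adjusted p = 0.254). In both genes the DMS libraries lay above both NT libraries without passing the test. Eef1d, the other exchange subunit, had 24.3 and 22.3 in NT and 27.3 and 30.3 in DMS. Eef2 had 0.24 ± 0.40 in DMS and −0.08 ± 0.40 in CMCT (adjusted p = 0.716 and 0.92).

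Among the 13 eIF3 genes the medians were 0.01 in DMS and 0.17 in CMCT, and Eif3m in CMCT was the single call. Eif3a, the scaffold of eIF3, had 56.4 and 46.0 stops per kb in NT and 90.6 and 91.8 in CMCT, a change of 0.83 ± 0.20 with an adjusted p of 0.0741. Eif3e, a PCI subunit, had 132.4 and 125.8 in NT, 160.4 and 163.5 in DMS, and 167.8 and 170.3 in CMCT. The 6 genes of eIF2 and its relatives had medians of 0.14 and 0.27. Eif2s1 (eIF2α, the subunit that the kinases phosphorylate) had −0.51 ± 0.19 in DMS (adjusted p = 0.147), whereas Eif2s2 (eIF2β) had 0.11 ± 0.19 (adjusted p = 0.729). Eif2s3x (eIF2γ) had 129.5 and 129.4 in NT, 103.8 and 90.1 in DMS, and 96.1 and 97.3 in CMCT. All 5 eIF2B genes stayed within −0.26 and 0.41 in both comparisons, with Eif2b1 at 0.16 and 0.19.

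Of the cap-binding machinery, Eif4e, the cap-binding protein, had 20.9 and 18.9 stops per kb in NT and 27.0 and 26.5 in CMCT (0.43 ± 0.20, adjusted p = 0.22). Eif4b, a cofactor of the helicase, had 0.11 ± 0.25 in DMS (adjusted p = 0.799). Eif4g2, which codes for a relative of eIF4G, had 107.8 and 102.2 in NT and 144.4 and 163.8 in CMCT (0.55 ± 0.26, adjusted p = 0.232). Eif4ebp1 had 0.18 ± 0.25 in DMS (adjusted p = 0.668). Eif4a3, the eIF4A of the exon junction complex, had 116.7 and 131.4 in NT, 91.2 and 71.3 in DMS, and 82.7 and 77.2 in CMCT, with −0.61 ± 0.20 in DMS (adjusted p = 0.116). The treated libraries were below NT in Eif4a3 as in Eif4a1, but Eif4a3 did not pass.

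Eif5, the GTPase activator of eIF2, had 42.7 and 35.9 stops per kb in NT, 68.7 and 52.4 in DMS, and 70.4 and 76.6 in CMCT, which is 0.90 ± 0.21 in CMCT (adjusted p = 0.067). Eif6, which keeps the subunits apart, had −0.27 ± 0.24 in DMS and −0.32 ± 0.24 in CMCT. Eif1, which guards start codon choice, had −0.06 ± 0.24 and 0.22 ± 0.24, and Eif1ax, its partner, 0.24 ± 0.17 and 0.22 ± 0.17. None of these 3 passed the test. Neighbouring lists gave no calls either: of the termination and recycling factors 4 were tested, of the initiation partners 13 and of the mitochondrial factors 5, and 0 passed in either comparison. At an unadjusted p under 0.05 there were 0, 3 and 0 in DMS and 1, 4 and 0 in CMCT. Of all genes, 17.7% were higher and 12.9% lower at that level in DMS, and 14.8% and 12.5% in CMCT. DESeq2 called 0, 2 and 0 in DMS and 1, 2 and 0 in CMCT, beside 16.5% and 16.2% of all genes. The lowest adjusted p in these lists, chosen after the values were seen, was that of Ddx3x, an RNA helicase of initiation, with 0.79 ± 0.19 in CMCT (0.067).

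Within an mRNA, the question is whether a reagent shifts the stops between the 5′ UTR, the coding region and the 3′ UTR. The regions of 1 coding isoform per gene were compared, and each change is relative to the rest of the same mRNA. In DMS, 8 of the 53 5′ UTRs tested fell and 1 rose, and 44 of the 53 had a value below 0, as did 2988 of the 4167 of all coding genes. The share that rose is 1.89%, beside 0.792% of all, and the call behind it is no support, as set out below. The fallen ones are 15.1% of those tested, beside 4.94% of all, and the median was −0.53 beside −0.36. In CMCT 18 of 53 fell, which is 34.0% beside 19.6% of all, and the median was −0.74 beside −0.66. The calls rest on few libraries. Over the 153 regions tested, 11 were called in DMS and 21 in CMCT, beside 2.74% and 7.70% of those of all genes. The DMS calls were lost without NT replicate 2, DMS replicate 1 or DMS replicate 2. The CMCT calls were lost without NT replicate 2 or CMCT replicate 2. In all of these fits nearly all calls over the regions of all genes were lost too.

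The density of stops was set out per library as well. Over 51 genes, the median ratio of 5′ UTR to coding region was 1.17 and 1.52 in NT, 0.538 and 0.686 in DMS, and 0.583 and 0.546 in CMCT. Over all coding genes it was 0.722 and 0.909 in NT, 0.561 and 0.639 in DMS, and 0.495 and 0.492 in CMCT. In both sets the NT libraries are the highest. The 5′ UTRs of the translation factors hold 16.4% A and 19.9% U, while their coding regions hold 27.3% A and 21.0% U, and the part of this in the result was not tested.

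Eef2 held 12.1% and 15.1% of its stops in the 5′ UTR in NT, and 5.22% and 4.33% in DMS and 6.82% and 3.64% in CMCT. The relative change was −1.48 in DMS (adjusted p = 0.0483) and −1.29 in CMCT (0.0458). In Eef1b2 the 5′ UTR held 40.1% and 45.7% in NT, 15.8% and 19.6% in DMS, and 15.4% and 13.9% in CMCT, with −1.26 (0.0334) and −1.54 (0.00632). In Eef1g it held 19.4% and 39.8%, 8.01% and 10.6%, and 5.49% and 8.18%, with −1.62 (0.016) and −2.09 (0.00244). In these 3 elongation factor mRNAs every treated library lay below both NT libraries. The same order was seen in Eef1a1, which held 59.3% and 68.2% in NT, 38.4% and 53.4% in DMS, and 57.7% and 30.9% in CMCT. It was not called.

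Of the initiation factors, Eif2s3y, the Y-linked copy of eIF2γ, had the largest fall in both comparisons, from 50 and 45 stops in NT to 7 and 20 in DMS and 35 and 8 in CMCT (−2.63 and −2.36, adjusted p = 0.0127 and 0.00731). Eif3m, Eif3i and Eif3a fell in both comparisons as well. Eif4a1 fell in DMS only by the test, with 57.2% and 66.7% of its stops in the 5′ UTR in NT, 24.7% and 26.01% in DMS, and 38.1% and 39.4% in CMCT (−1.30 and −0.69, adjusted p = 0.0231 and 0.264). The difference between the reagents was not tested. Eif2s1, Eif2s2, Eif3e, Eif3l, Eif4a3, Eif4b, Eif4h, Eif2a, Eif2b5, Eif2ak2 and Eif2c2 were called in CMCT and not in DMS, again without a test of the difference. Eif2s1 held 52.7% and 68.4% there in NT and 24.4% and 23.2% in CMCT, and its 3′ UTR rose (1.14, adjusted p = 0.0129).

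The single 5′ UTR that rose was that of Eef1a2, with 0 and 0 stops in NT, 29 and 28 in DMS, and 5 and 4 in CMCT, again with almost equal replicates. It passed the filter on low counts only through the DMS libraries, so its call is no support for a rise. Against a floor of 3 counts over both NT libraries, that is at least 14.4-fold higher in DMS. Coding regions rose in 2 genes in DMS, Eif1ad and Eif4a1, beside 1.73% of all coding regions, and in 2 in CMCT, Eif1ad and Eef2k, beside 2.76%. The Eif4a1 call rests on 75 used positions of a coding region of 1221 bases. Its change was 1.16, ran from 0.12 to 1.36 over the alternatives with adjusted p up to 0.999995, and lost the call in 7 of 9. No 3′ UTR rose in DMS, where 0.835% of all did, and 1 of 47 rose in CMCT, where 1.58% of all did. Eif1ad, a nuclear relative of eIF1A, held 7.42% and 4.21% of its stops in the coding region in NT, 14.9% and 18.3% in DMS, and 9.43% and 21.5% in CMCT. Without the most counted position of each region, the calls were 10 in DMS and 19 in CMCT, beside 2.76% and 6.24% of all regions.

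**Figure D4:**
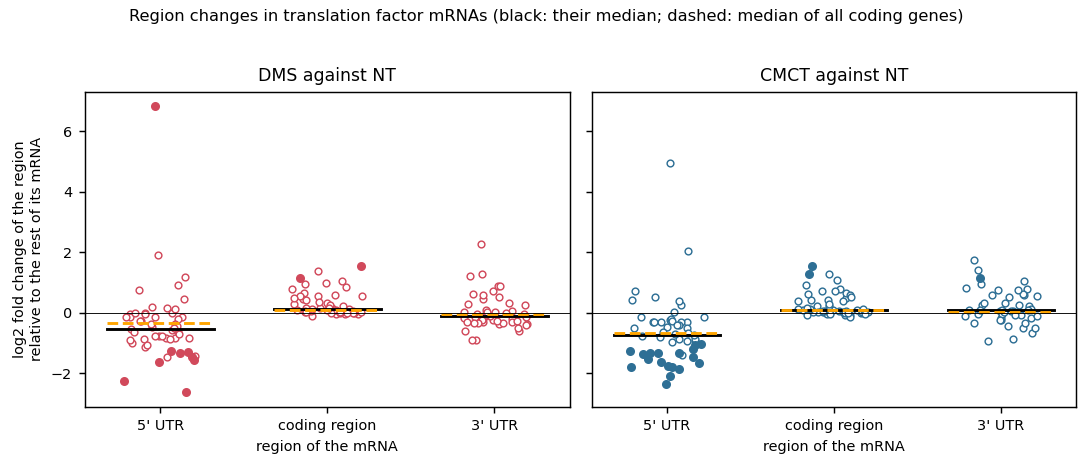
The plot gives the log2 fold change of each region relative to the rest of its mRNA for DMS and CMCT against NT, with 1 point per translation factor gene, filled where the test passed, a black line for their median and a dashed line for the median of all coding genes. The 5′ UTR medians are −0.53 in DMS and −0.74 in CMCT, near those of all genes at −0.36 and −0.66, and the highest point in DMS is Eef1a2, whose NT libraries have no stops there, so that its height is set by the fit and is no measured fold.

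Stops were also counted by the base at which they lie. Stops at A made up 11.04% and 12.996% of all stops of the translation factor genes in NT and 28.8% and 36.7% in DMS, without overlap, and 25.5% of the used bases are A. The difference was 20.7 percentage points. An exact two-sided permutation test of this difference gave p = 0.333, the smallest it can give with 2 libraries against 2. In 53 of the 55 genes with at least 50 stops in every library, the A share was higher in both DMS than in both NT libraries, beside 87.4% of all genes. The exceptions were Eef2k and Eif4a2, in which 1 position holds 38.8% and the small RNA positions hold 76.9% of the stops.

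Stops at U made up 36.8% and 44.3% in NT and 43.5% and 41.8% in CMCT, so the groups overlap, and they made up 24.5% and 26.1% in DMS. Without the 10 most counted positions of each gene the U shares were 28.0% and 30.8% in NT and 37.3% and 37.1% in CMCT, which do not overlap. By gene, the U share was higher in both CMCT than in both NT libraries in 49 of 55, beside 73% of all genes. Eef1a1 was among the 6 exceptions, with 64.8% and 69.4% in NT and 66.8% and 51.2% in CMCT. So was Eif3m, with 76.3% and 90.4% against 53.2% and 62.9%. Eef1a1 and Eif3m each have 1 U with many NT stops, described above. The other exceptions were Eef1d, Eif1b, Eif4a2 and Eif6. Their most counted position was a C with 3.41% of the stops in Eef1d and 10.2% in Eif1b. It was a U with 38.2% in Eif4a2 and 2.10% in Eif6. In Eef2, the U share went from 23.2% and 26.2% in NT to 35.5% and 37.6% in CMCT.

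Of the 6056 positions of these genes with at least 30 stops over the 6 libraries, 857 rose in DMS and 339 fell, which is 14.2% and 5.60%, beside 14.4% and 7.32% of all 240811 positions. At A, 655 of 1292 rose, or 50.7%, beside 46.5% of all A. At C, which DMS also marks, 100 of 2142 rose, or 4.67%, beside 7.84% of all C. In CMCT, 233 rose and 155 fell, or 3.85% and 2.56%, beside 5.53% and 3.81% of all. At U, 135 of 1874 rose, or 7.20%, beside 8.67% of all U. These shares move with the equal replicates: among the other positions of the same fit, 46.9% of A in translation factor genes rose in DMS beside 33.9% of all A, and 3.5% of C beside 4.12%. The difference from all genes was not tested. The CMCT calls were all lost when any 1 NT or CMCT library or the positions with equal replicates were left out. The same holds for the CMCT calls over all genes. In DMS, 1196 positions were called, and 320 to 568 with 1 NT or DMS library left out and 406 when the positions with equal replicates were left out of the fit. Of these 406, 380 rose and only 26 fell, or 6.90% and 0.472%, beside 4.21% and 0.590% of all.

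Eef2 had 1050 of the tested positions and 198 of the DMS rises, followed by Eif4g2 with 119, Eef1b2 with 65, Eif5a with 45 and Eif4b with 42. Eif4g1 went the other way, with 1 position raised and 30 lowered by DMS among 158. Positions are not set against the level of their gene, which fell as a whole in Eif4g1, so this count is no separate result. The 5 coding positions with the largest called rise in DMS had no stop in either NT library. The choice by largest rise favours such positions. They also reached the minimum of 30 stops only through DMS, so their p-values are no support. The 5 positions are shown with 10 bases on each side, from the mm9 reference, 5′ to 3′ on the strand of the mRNA, and the capital marks the stop.
Eef2, chr10:80642782-80642802, plus strand: cctgggaagaAagaggaccta
Eef1b2, chr1:63225019-63225039, plus strand: gggagtgaagAaatctttggg
Eef2, chr10:80642097-80642117, plus strand: tgatccggccAatggcaagtt
Eef1a2, chr2:180888370-180888390, minus strand: acttcatcaaGaatatgatta
Eif3h, chr15:51621586-51621606, minus strand: gccaggacatAatcaaataca

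All but the Eef1a2 position are at A, and that one is at G, which is not among the bases that DMS mainly marks. The adjusted p ran from 0.00823 to 0.00889, and were at most 0.0408 in the alternatives that tested these positions. The Eef1a2 position, with equal replicates, was left out of one of them, and it and the Eif3h position were under the minimum of 100 counts of another. At base 1316 of the Eef2 coding region, DMS gave 73 and 87 stops and CMCT 12 and 4, against 0 and 0 in NT. Set against a floor of 3 counts over both NT libraries, with the library scaling of the gene levels, that is at least 40.4-fold higher in DMS. At base 808 of the same region, DMS gave 61 and 56 stops and CMCT 5 and 5, at least 29.5-fold higher than the NT floor. Base 220 of Eef1b2 had 54 and 95 in DMS (at least 37.6-fold), and base 771 of Eif3h, a core eIF3 subunit gene, 35 and 48 (at least 20.9-fold). Base 300 of Eef1a2 had 46 and 45, at least 22.96-fold, and is 1 of its positions with equal replicates in all treatments.

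**Figure D5:**
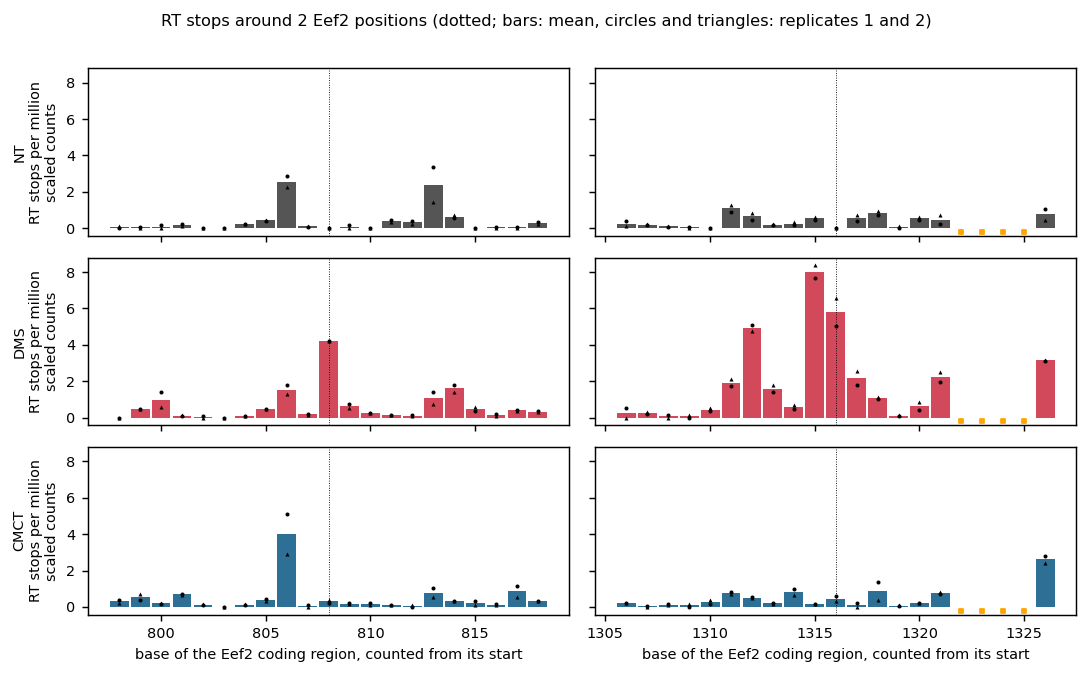
The plot gives RT stops per 1000000 scaled counts at each base within 10 bases of bases 808 (left) and 1316 (right) of the Eef2 coding region, in NT, DMS and CMCT from top to bottom, with bars for the mean, circles and triangles for replicates 1 and 2, and orange squares for bases that were not used. At both dotted positions, which were chosen by their rise in DMS, the NT libraries are at 0, and the DMS bars stand above those of NT and CMCT. The base before 1316 is higher still in DMS, with 7.67 and 8.37.

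In CMCT, the 5 coding positions with the largest called rise were chosen in the same way, and their p-values are no support either. They were also without NT stops and reached the minimum of 30 stops only through CMCT. Of these, 2 were in Eif4g1, at bases 2499 and 2192 of its coding region, both at U, with 31 and 16 and with 21 and 15 stops in CMCT, at least 9.96-fold and 7.63-fold above the NT floor. In Eif1ax, base 283 is a U with 29 and 28 stops (at least 12.1-fold). The remaining ones were at an A of Eif4g2 (base 923, 36 and 35 stops, at least 15.04-fold) and a G of Eif3m (base 524, 21 and 21 stops, at least 8.90-fold). The adjusted p ran from 0.0352 to 0.0441, and up to 0.175 over the alternatives. The Eif1ax and Eif3m positions are among those with equal replicates in all treatments. The windows of the 3 at U are shown in the same way.
Eif1ax, chrX:155817679-155817699, plus strand: cattttaaaaTacaacgcaga
Eif4g1, chr16:20682736-20682756, plus strand: aagtgcccacTacagaaaagc
Eif4g1, chr16:20681891-20681911, plus strand: gacataaaacTaaataaagca

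In the coding regions, stops were set out by the position in the codon, and differences between codon positions were not tested. The stops of each base were divided by the mean of their coding region and capped at 20. This was done over 49 genes with at least 50 stops in every library. At A in the first codon position the values were 0.444 and 0.546 in NT and 1.48 and 2.00 in DMS. At A in the second position they were 0.519 and 0.531 in NT and 1.08 and 1.37 in DMS, and at the third 0.354 and 0.452 in NT and 1.12 and 1.47 in DMS. The rise in DMS over NT was 3.51-fold at the first, 2.34-fold at the second and 3.21-fold at the third position, and the second was lowest over all 4271 coding genes too, at 2.55-fold beside 3.54-fold and 3.11-fold. At U in CMCT the first position had 2.28 and 2.30, but was already high in NT with 1.76 and 1.96. The rise in CMCT over NT was 1.23-fold there, 1.36-fold at the second and 1.44-fold at the third position. Over all coding genes it was 1.34-fold, 1.38-fold and 1.40-fold. At the A of the start codon, read in 34 of the genes, the values were 0.422 and 0.591 in NT and 0.771 and 1.04 in DMS. Over all coding genes this A had 0.545 and 0.515 in NT and 0.808 and 1.31 in DMS. The base just before the A had 4.12 and 3.30 in NT, 4.44 and 3.63 in DMS, and 2.67 and 2.77 in CMCT, so that it is high without a reagent as well. Over all coding genes that base was high too, with 4.44 and 3.63 in NT, 4.74 and 3.87 in DMS, and 3.53 and 3.68 in CMCT.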

How the data were processed

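CIRS-seq counts were available for 2 replicates each of NT, DMS and CMCT and RNA-seq alignments for 1 library. The authors deposited counts of RT stops at each transcript position, not normalized, with the position of the modified base. The submitters' processing notes name Bowtie 1.0.0, bedtools 2.17.0 and FastQC 0.10.1 for these, TopHat2 2.0.6 for RNA-seq, and mm9 as the build. Per the paper, an mm9 variant with E14 bases was used, and how reads with several places were treated is not given in the sources used here. The pooled files of both replicates were not used. RNA-seq was deposited as the positions of alignments, all spanning 50 bases, so no spliced read is listed, and 22286799 of 31857551 fell in 1 gene and were counted.

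Of 26827 listed transcripts, 26792 had an entry in GENCODE vM1 (mm9). A position was used where the 25 bases after it occur once in mm9 and no other listed gene holds it, and each was counted once per gene with the larger count over isoforms. Genes and positions (at least 30 counts) went through the quasi-likelihood test of edgeR 4.0.16 under R 4.3.3 (TMM, 1 fit over 6 libraries, no block, Benjamini-Hochberg at 0.05), and regions with its diffSpliceDGE. Fits were tested on simulated counts. DESeq2 1.42.0 was an alternative. Python 3.11.15 with numpy 2.4.6, pandas 2.3.3, numba 0.67.0, scipy 1.17.1 and matplotlib 3.10.9 did the rest. Scaled counts are library totals times TMM factors, and ± is SE or SD as named. The counts cover sampling error only through the spread of 2 replicates.

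Named were the 5 genes highest by RNA-seq and by NT stops, all called genes, role examples, and the 5 coding positions with the largest called rise. Eif2ak4 and Eif5b, among the role examples, were not analysed here. Members and lists were chosen with earlier results of these data known. Sequences are mm9 reference bases, and RefSeq starts are of GRCm38.p6.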

Additional observations from a re-analysis of the deposited data

How the results depend on the processing

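Of translation factor genes, 2 were called in DMS and 1 in CMCT, beside 9.18% and 5.69% of all genes. All positions gave 8 and 8, beside 26.37% and 28.96% of all genes. DESeq2 gave 4 and 5, beside 16.49% and 16.22%. The coding region alone gave 4 (3 of them rises) and 0, beside 5.52% and 1.17%. Leaving out positions near repeated sequence gave 5 and 5, beside 12.7% and 6.64%. Leaving out small RNA positions gave 1 in DMS, beside 3.99%. With 1 library left out, the DMS calls were lost in every fit, and the CMCT call in all but the fit without CMCT replicate 1. Without an NT library the DMS calls over all genes were lost too. The changes of Eif4a1 in DMS (0.0347 without positions near repeats, 0.14 in the coding region) and of Eif3m in CMCT (0.18 without the 10 most counted positions, 0.47 in the coding region) turned sign. For regions, the 11 DMS calls became 25 with all positions and 7 with a minimum of 5 counts, and ranged from 0 to 7 with 1 library left out, and the 21 CMCT calls from 0 to 23. For positions, the 1196 DMS calls became 301 at a minimum of 100 counts and 406 without equal replicates, and ranged from 320 to 568. The 388 CMCT calls, beside 9.34% of all positions, became 150, beside 17.8%, and 258 with DESeq2 size factors, beside 6.27%. Without equal replicates they were 0, and all were lost with 1 library left out. Both losses were the same over all positions. The U share in CMCT minus NT was 7.84 points without the 10 most counted positions, and ranged from −1.66 to 5.85 points with 1 library left out. The A share in DMS minus NT ranged from 16.8 to 24.7. With all positions, Spearman's rho fell to 0.456 (NT), 0.411 (DMS) and 0.486 (CMCT). The choices near repeats, of the coding region, of the most counted positions, of small RNAs and of equal replicates were made after seeing the data. The cause of these shifts was not tested, beyond the fewer counts or libraries of some.

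The labels do not say that a replicate number marks a shared culture or day, and the samples were not taken as paired. Same-numbered NT and DMS libraries deviated together, while the pairs with CMCT had values near 0 (correlation of deviations over 8665 genes of 0.423 for NT and DMS, −0.0467 for NT and CMCT, and 0.0885 for DMS and CMCT). With the replicate block, 3 genes were called in DMS and 2 in CMCT, beside 15.5% and 9.31% of all genes. Of the regions, 17 were called in DMS and 25 in CMCT, beside 4.63% and 9.56% of all. Of the positions, 1238 and 655 were called, beside 24.1% and 14.9% of all. Depth limits the low genes: Eif2c4, with 2 to 6 counts per library, was not tested.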
